A study of Mus musculus with 7 samples.

Results

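The core circadian clock genes were described across 7 mouse tissues. Their 10 members are Arntl (which encodes BMAL1), Clock, Per1, Per2, Per3, Cry1, Cry2, Nr1d1 (REV-ERB alpha), Nr1d2 (REV-ERB beta) and Dbp. They were chosen by name and not by a cut on measured values, though earlier results of these data were known. The deposited table holds 50355 gene names, of which 14928 belong to protein-coding genes that reached 1 FPKM in a tissue. FPKM gives sequenced fragments scaled for the length of the transcript and the size of the library, so that levels of different genes can be compared. RNA-Seq was performed on total RNA after depletion of rRNA from liver, kidney, muscle, cortex and 3 fat depots of wild-type C57BL/6 mice (C57BL/6N in the methods) aged 36 weeks on the diet labelled NCD, with 1 library per tissue. The depots were brown (BAT), visceral (VAT) and subcutaneous (SCAT) adipose tissue. All libraries share this genotype, age and diet. The hour at which each tissue was taken is not given in the sources used here, nor is it given whether the tissues came from the same animal.

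The clock is a feedback loop of transcription that runs with a period of about a day in almost every mammalian cell. CLOCK and BMAL1 bind E-boxes as a pair and drive the Per, Cry, Nr1d and Dbp genes. PER and CRY proteins then repress this pair, REV-ERB proteins repress Arntl through RORE elements, and DBP acts on D-boxes. In mouse liver, Arntl transcripts peak around the end of the night, in antiphase to those of Nr1d1, Dbp and the Per genes, which peak in the later part of the day. Clock transcripts have a phase close to that of Arntl but a low amplitude. The ratio of the 2 groups in 1 sample therefore depends on the phase at which it was taken, and also on the amplitude of the clock and on the cells in the tissue.

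In the annotation of GRCm38, the plus strand holds Arntl at chr7:113207465-113314126, Per1 at chr11:69095217-69109960 and Dbp at chr7:45705088-45710203, and the minus strand holds Clock at chr5:76209868-76304792, Per2 at chr1:91415982-91459324, Per3 at chr4:151003652-151044665, Cry1 at chr10:85131700-85185064, Cry2 at chr2:92403646-92434043, Nr1d1 at chr11:98767932-98775333 and Nr1d2 at chr14:18204054-18239127. The locus used for each member lay on the annotated strand in all 10 cases, and Clock, Per1, Per2 and Cry1 had further loci on the other strand, by the order of loci in the table, of up to 14.2%, 83.4%, 49.3% and 69.8% of the FPKM used.

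The elements of the loop can be seen in the reference sequence of the members. Promoter windows of RefSeq (GRCm38.p6), from 250 bases before to 50 bases after an annotated start, were given for 9 of the 10 members, 13 windows in all. Per2 has no entry. Both strands were searched for the E-box CACGTG, its variant CACGTT, the D-box TTANGTAA and the RORE. The E-box was found in 2 members, in Per1, 166 bases before the start of the first of its 2 windows, which lies within the annotated gene (window chr11:69098771-69098800, plus strand), and in Cry1, 60 bases before the start (chr10:85185097-85185126, minus strand). The E-box variant was found in 3 members, in Nr1d1 at 28 bases before the start (chr11:98775388-98775417, minus strand), in Cry2 at 166 bases (chr2:92434218-92434247, minus strand) and again in Cry1 at 79 bases (chr10:85185116-85185145, minus strand). Per3 has the D-box at 205 and 158 bases before the start (chr4:151044852-151044881 and chr4:151044805-151044834, minus strand), and Arntl has the RORE from 28 bases after the start of the second of its windows (chr7:113207528-113207557, plus strand). The windows below are shown because they hold the letters that the members of the loop bind. They are on the strand of the gene, 5′ to 3′, with the motif in capitals, and the variant reads AACGTG where it lies on the other strand.
Per1 E-box: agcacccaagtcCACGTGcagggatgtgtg
Cry1 E-box: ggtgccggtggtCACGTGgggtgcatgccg
Cry1 variant: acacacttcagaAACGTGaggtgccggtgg
Nr1d1 variant: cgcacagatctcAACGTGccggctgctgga
Cry2 variant: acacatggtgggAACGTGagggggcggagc
Per3 first D-box: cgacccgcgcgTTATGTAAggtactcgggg
Per3 second D-box: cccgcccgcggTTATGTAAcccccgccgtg
Arntl RORE: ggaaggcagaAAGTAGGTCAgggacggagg
None of these matches overlaps another. Among all 32851 windows of this table, 7.15% hold the E-box, 4.68% its variant, 2.32% the D-box and 0.773% the RORE. The windows of Clock, Nr1d2 and Dbp hold none of the 4 motifs, which says only that these letters are not within these bases.

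The labels of the tissues were checked with genes that define them. Apoa1 had 2521 FPKM in liver, Umod 929.5 in kidney, Snap25 215 in cortex, Ckm 8592 in muscle, Ucp1 6552 in BAT, and Adipoq 330.2 in VAT and 109.6 in SCAT. Both white adipose libraries also held transcripts of other cells. The sum of 3 lymphocyte markers (Ms4a1, Cd79a, Cd3e) was 89.5 FPKM in SCAT and at most 2.80 elsewhere, and that of 4 pancreatic acinar markers (Ctrb1, Cpa1, Cela1, Prss2) was 92.9 FPKM in SCAT and at most 8.82 elsewhere. The sum of 4 epididymis markers was 2639 FPKM in VAT and at most 1.99 elsewhere, with Lcn9 listed at 0 in all 7 libraries, while 3 hepatocyte markers (Alb, Apoa1, Ttr) summed to 300.3 FPKM in VAT, where Alb had 253, to 197 in cortex and to 51.9 in kidney. In cortex and kidney nearly all of this was Ttr (195 and 46.3 FPKM), with Alb at 1.81 and 5.22 FPKM. Sums of 3 macrophage markers ranged from 7.74 FPKM in kidney to 33.7 in SCAT, and those of 3 endothelium markers from 2.36 FPKM in cortex to 46.9 in BAT. Muscle markers summed to 254 FPKM in BAT. Neuron markers stayed at or under 1.07 FPKM outside cortex, brown adipocyte markers at or under 12.9 FPKM outside BAT, and adipocyte markers at or under 25.2 FPKM outside the fat depots. The part of these cells in the results below was not tested, and lower RNA of a gene per cell cannot be told apart from fewer cells that express it. The libraries also differed over all genes: the median gene lay 0.49 below its own mean of the 7 tissues in SCAT and 0.30 below it in VAT, on the log2(FPKM + 0.1) scale, and 0.13 above it in muscle. FPKM changes between tissues are therefore also given relative to all genes.

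Among the activators, Arntl was highest in muscle and lowest in kidney. Its FPKM was 3.41 in liver, 3.04 in kidney, 14.4 in muscle, 8.66 in cortex, 3.64 in BAT, 4.25 in VAT and 5.11 in SCAT. Muscle and cortex thus stood above the other 5 tissues, among which Arntl stayed between 3.04 and 5.11 FPKM. Clock, whose protein is the partner of BMAL1, was the member with the least variation and in 6 of the 7 tissues the one with the highest level. Its FPKM was 17.4 in liver, 12.9 in kidney, 13.6 in muscle, 14.1 in cortex, 22.6 in BAT, 11.8 in VAT and 10.5 in SCAT. Only in muscle did Arntl exceed Clock, by 14.4 to 13.6 FPKM, a difference that without replicates has no error. The highest and lowest tissues differed by 4.73-fold for Arntl and 2.15-fold for Clock in FPKM.

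The Per genes, which encode the repressors that set the pace of the loop, did not share 1 pattern over the tissues. Per1 had 1.81 FPKM in liver, 1.22 in kidney, 5.18 in muscle, 2.51 in cortex, 1.51 in BAT, 1.78 in VAT and 1.37 in SCAT. Per2 had 3.91 FPKM in liver, 2.41 in kidney, 2.34 in muscle, 2.91 in cortex, 2.28 in BAT, 0.896 in VAT and 0.878 in SCAT. Per3 had 2.56 FPKM in liver, 1.72 in kidney, 3.10 in muscle, 1.64 in cortex, 2.22 in BAT, 1.12 in VAT and 0.764 in SCAT. Per1 was thus highest in muscle and Per2 in liver, while Per2 and Per3 were lowest in SCAT and VAT, which for Per2 cannot be ordered without replicates. The ratio of Per1 to Per2 within a library was 0.462 in liver, 0.507 in kidney, 0.664 in BAT and 0.864 in cortex, but 1.56 in SCAT, 1.99 in VAT and 2.21 in muscle. Per1 was the lower of this pair in the first 4 tissues and the higher in the last 3.

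Cry1 and Cry2, the cryptochromes that hold the activators in check, were both highest in muscle, and Cry1 was lowest in kidney. Cry1 had 1.66 FPKM in liver, 0.727 in kidney, 5.46 in muscle, 3.32 in cortex, 2.38 in BAT, 1.76 in VAT and 2.18 in SCAT. Cry2 had 4.14 FPKM in liver, 1.43 in kidney, 7.79 in muscle, 5.10 in cortex, 2.63 in BAT, 2.30 in VAT and 1.44 in SCAT. For Cry2, kidney and SCAT shared the lowest place, at values that cannot be ordered without replicates. Cry2 exceeded Cry1 in 6 tissues. SCAT was the exception, with a Cry1 to Cry2 ratio of 1.52 where the other tissues ranged from 0.401 in liver to 0.903 in BAT.

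Nr1d1 and Nr1d2, nuclear receptors that bind heme and repress Arntl, had nearly the same pattern. Nr1d1 had 5.16 FPKM in liver, 3.02 in kidney, 9.91 in muscle, 5.60 in cortex, 4.11 in BAT, 1.81 in VAT and 1.64 in SCAT. Nr1d2 had 7.76 FPKM in liver, 5.21 in kidney, 12.1 in muscle, 5.39 in cortex, 5.65 in BAT, 2.12 in VAT and 1.58 in SCAT. Muscle was highest and SCAT lowest for both, with VAT next lowest. The median gene also lay below its own mean in both white adipose libraries, as given above. How many of all genes had SCAT and VAT as their lowest pair was not computed. The ratio of Nr1d2 to Nr1d1 stayed between 0.961 in SCAT and 1.72 in kidney.

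Dbp, a transcription factor of the PAR bZIP family and a direct output of the loop, varied most among the members. Its FPKM was 15.4 in liver, 8.55 in muscle, 5.12 in kidney, 3.77 in BAT, 3.51 in cortex, 1.43 in VAT and 1.28 in SCAT. Liver exceeded SCAT 12.1-fold. Muscle, which was highest for 7 of the 10 members, came second here. Both white adipose libraries, in which the median gene was also low, were again lowest.

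**Figure D1:**
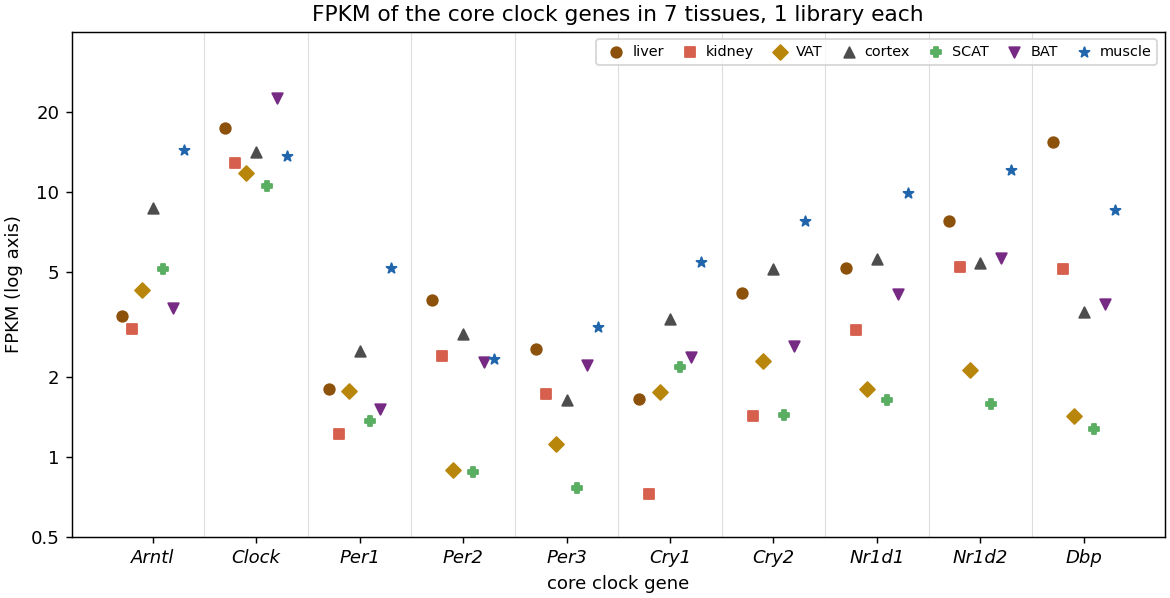
FPKM (log axis) of the 10 core clock genes, with 1 point per tissue and 1 library behind each point, so no error bars can be drawn. Clock lies between 10.5 and 22.6 FPKM in every tissue, whereas Dbp runs from 1.28 FPKM in SCAT to 15.4 in liver. VAT and SCAT hold the 2 lowest points for Clock, Per2, Per3, Nr1d1, Nr1d2 and Dbp. The share of all genes with this lowest pair was not computed.

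Most members varied several-fold over the tissues without being specific to any of them. Highest and lowest tissue were at least 4-fold apart, on the log2(FPKM + 0.1) scale, for 7 of the 10 members, which matches the 70.0% of all 14928 genes. Clock (1.10), Per3 (1.89) and Per1 (2.00, just under the limit before rounding) were the others, and the median log2 range was 2.28 for the members and 2.99 for all genes. No member was enriched in a tissue, that is at least 4-fold above each of the other 6, where 21.3% of all genes were. The lowest tissue was SCAT for 6 of the 10 members (Clock, Per2, Per3, Nr1d1, Nr1d2, Dbp), against 21.8% of all genes, and VAT was lowest for no member, while SCAT or VAT was lowest for 33.6% of all genes. Muscle was highest for 7 of the 10, against 24.0% of all genes. After division by median-ratio size factors, which remove the shift of all genes, the 4-fold count fell to 3 (Cry1, Cry2, Dbp), against 65.7% of all genes at that scaling. SCAT or VAT was then lowest for 5 members, since Clock was lowest in muscle, against 14.9% of all genes, and muscle was highest for 6, against 15.1%. A 4-fold range was seen for 4 members without the muscle library, against 63.5% of all genes, and for 4 members without SCAT and VAT, against 60.7%.

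The members farthest below liver or muscle in SCAT were mostly dusk genes. Compared with liver, 3 members were at least 4-fold lower in SCAT, namely Per2, Nr1d2 and Dbp, against 14.0% of all genes. Compared with muscle, 4 were, namely Cry2, Nr1d1, Nr1d2 and Dbp, against 16.8% of all genes. With size factors these counts were 1 (Dbp) and 0, against 10.1% and 8.76% of all genes. All 10 members were lower in SCAT than in muscle, with a median log2 difference of -1.87, or -1.42 relative to all genes. The median over all genes was itself -0.45, with quartiles of -1.51 and 0.37, so most genes were also lower in SCAT. The share of all genes lower in SCAT than in muscle was not computed. For the 6 dusk genes the median log2 difference between SCAT and muscle, relative to all genes, was -1.76. Arntl and Clock were not below all genes: their level against their own mean of the 7 tissues, after subtraction of the median gene, was 0.46 and 0.05 log2 units in SCAT and 0.01 and 0.02 in VAT, where the median of the dusk genes was -0.64 and -0.75. Per1 was the dusk gene that was not below all genes there, at 0.00 in SCAT and 0.17 in VAT. Cry1 (0.51) went with Arntl in SCAT, and Cry2 (-0.52) with the dusk genes.

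**Figure D2:**
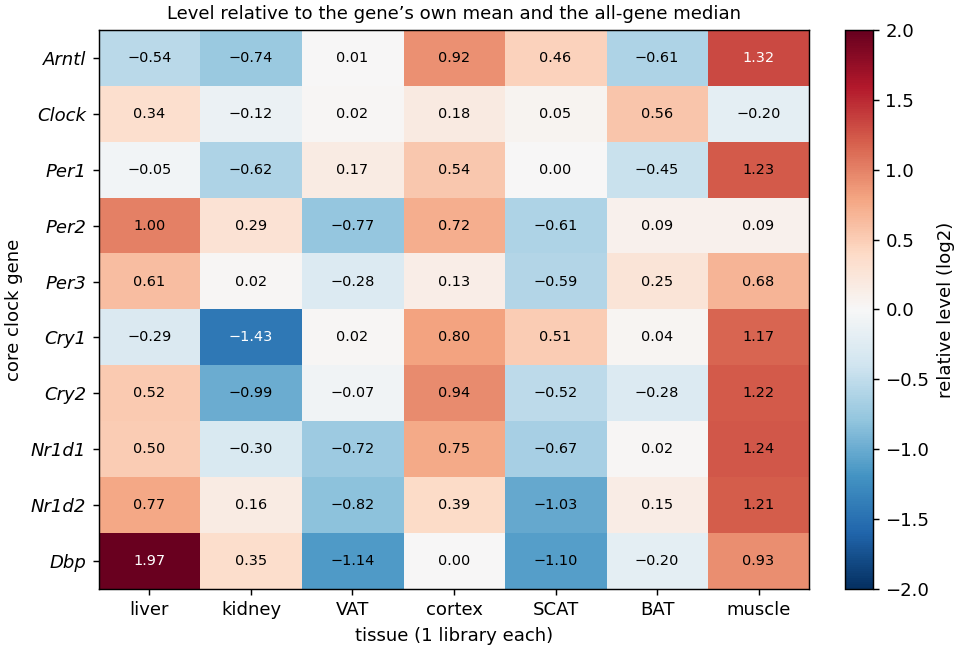
Level of each core clock gene in each tissue as log2(FPKM + 0.1) minus the gene's own mean over the 7 tissues and minus the median of all genes in that tissue, 1 library per column, with red for higher and blue for lower. Nr1d1, Nr1d2, Per2, Per3 and Dbp are below their mean in VAT and SCAT, with Dbp at -1.14 and -1.10, while Per1 is at 0.17 and 0.00 there. Dbp is 1.97 above its mean in liver, and Arntl is below its mean in liver, kidney and BAT and 1.32 above it in muscle.

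The ratio of dawn genes to dusk genes was compared next, since a factor that scales a whole library cancels within it. The dawn-dusk index was the mean log2(FPKM + 0.1) of Arntl and Clock minus that of Per1, Per2, Per3, Nr1d1, Nr1d2 and Dbp. The index was 0.69 in liver, 1.17 in kidney, 1.25 in muscle, 1.59 in BAT, 1.71 in cortex, 2.20 in VAT and 2.51 in SCAT. Liver thus had the lowest and white adipose tissue the highest ratio of dawn to dusk transcripts, with 1.81 log2 units, or 3.52-fold, between liver and SCAT. Kidney and muscle were 0.07 apart and BAT and cortex 0.13, and without replicates no order can be given to such neighbours. The dusk mean ranged over 2.18 log2 units, from 0.39 in SCAT to 2.57 in muscle. The dawn mean ranged over 1.14, from 2.68 in kidney to 3.82 in muscle. It averages Arntl and Clock, which differed in pattern and ranged over 2.21 and 1.10 on their own. The group means include the shift of all genes given above. Liver and SCAT had close dawn means (2.97 and 2.89) and dusk means of 2.28 and 0.39. Without SCAT and VAT, the index ranged over 1.02 log2 units, or 2.03-fold, in the other 5 tissues.

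The ratio of each of the 6 dusk genes to Arntl was highest in liver. Dbp relative to Arntl was 4.51 in liver, 1.68 in kidney, 1.04 in BAT, 0.594 in muscle, 0.406 in cortex, 0.336 in VAT and 0.250 in SCAT, an 18.1-fold spread in FPKM. Nr1d1 relative to Arntl was 1.51 in liver, 1.13 in BAT, 0.993 in kidney, 0.688 in muscle, 0.647 in cortex, 0.426 in VAT and 0.322 in SCAT, a 4.70-fold spread. Dbp exceeded Arntl in liver and kidney and was below it in muscle, cortex, VAT and SCAT. In BAT the ratio was 1.04, and the pair cannot be ordered there without replicates. SCAT also had the lowest ratio for Nr1d2 (2.27 in liver and 0.309 in SCAT), Per3 (0.750 and 0.149) and Per1 (0.529 and 0.267). Per2 relative to Arntl was 1.14 in liver, 0.172 in SCAT and 0.163 in muscle, and the last pair cannot be ordered without replicates. The places of muscle, BAT and cortex depended on the dawn gene. The index of muscle relative to the mean of the 7 tissues was -0.34 with both dawn genes, 0.42 with Arntl alone and -1.10 with Clock alone, where muscle and not liver had the lowest index. With both dawn genes, Arntl alone and Clock alone, BAT was at 0.00, -0.58 and 0.58, and cortex at 0.13, 0.49 and -0.24. SCAT had the highest index in all 14 alternatives that could change a member. The difference between SCAT and liver was 2.46 log2 units with Arntl alone and 1.17 with Clock alone.

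**Figure D3:**
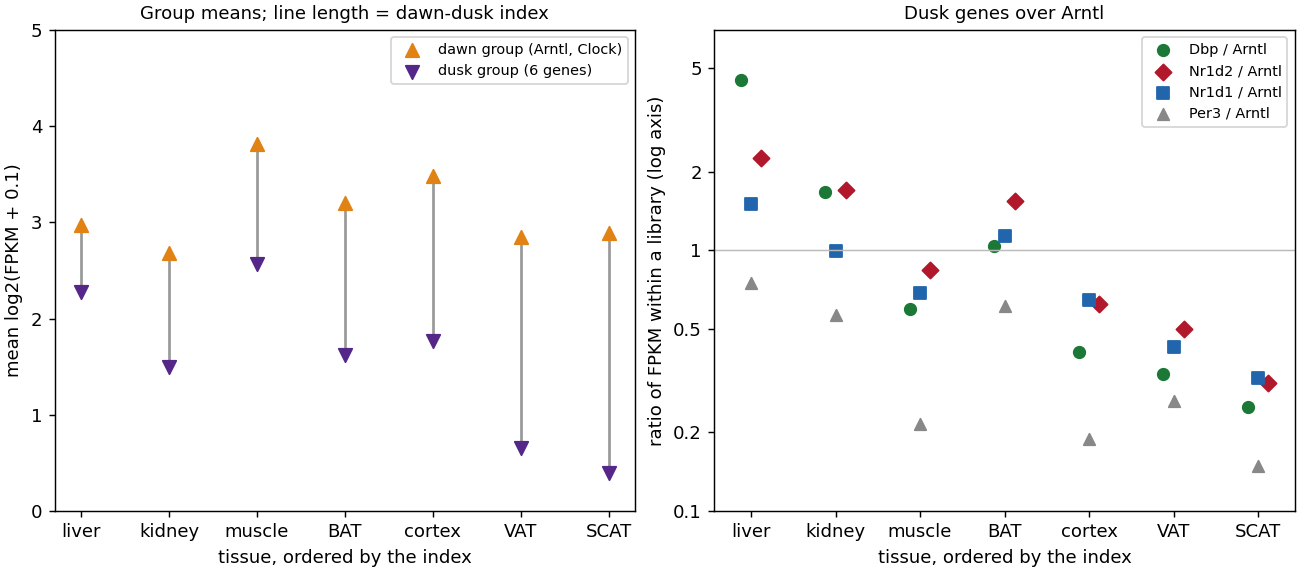
Left, mean log2(FPKM + 0.1) of the dawn group and of the dusk group per tissue, with the line between them as the index; right, FPKM of Dbp, Nr1d2, Nr1d1 and Per3 divided by that of Arntl in the same library (log axis), 1 library per tissue and points shifted sideways for legibility. The line is shortest in liver (0.69) and longest in SCAT (2.51), and Dbp over Arntl falls from 4.51 to 0.250 between these tissues.

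Genes outside the core loop with known phases gave a second index, with Npas2 and Nfil3 as dawn genes and Tef, Hlf, Ciart, Usp2, Bhlhe41 and Wee1 as dusk genes. NPAS2 is a paralogue of CLOCK, NFIL3 is a repressor at D-boxes, TEF and HLF are PAR bZIP factors like DBP, CIART and BHLHE41 repress CLOCK and BMAL1, USP2 removes ubiquitin and WEE1 restrains entry into mitosis. The second index was -2.68 in muscle, -2.32 in kidney, -1.99 in liver, -1.83 in cortex, -1.59 in BAT, -1.23 in VAT and -0.38 in SCAT. SCAT and VAT had the highest values, and muscle had the lowest. Npas2 reached 1 FPKM in cortex alone (2.62 FPKM) and had 0.259 to 0.971 FPKM in the other 6 tissues. Nfil3 had 0.563 FPKM in kidney, 0.409 in VAT, 0.593 in cortex and 0.538 in SCAT, and 2.13 to 3.51 in BAT, muscle and liver. On its annotated strand Nfil3 had at most 0.545 FPKM. In SCAT and VAT both dawn genes, and the dusk genes Hlf and Ciart, were thus under 1 FPKM. The highest values of the second index therefore rest on genes at a low level. Over the 7 tissues, which are the same libraries for both lists, the indices had a Pearson r of 0.83 and a Spearman rho of 0.82, and r was 0.90 without liver and SCAT, the tissues farthest from the median. Without SCAT and VAT, r was 0.37 over 5 tissues. Without Npas2, whose only dawn partner is then Nfil3, the second index was highest in BAT and lowest in cortex. For Npas2, Nfil3 and Tef the locus used lies on the strand opposite to the gene, by the order of loci in the table, and with loci on the annotated strand only the range was 2.40 in place of 2.29 and the order of the tissues was unchanged.

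**Figure D4:**
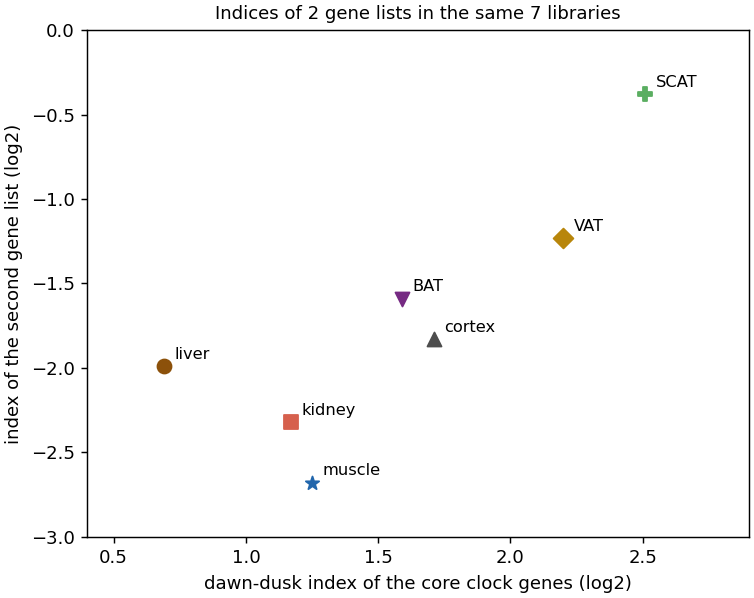
Dawn-dusk index of the core clock genes against that of the second gene list, both in log2 units, with 1 point per tissue and 1 library behind each. SCAT (2.51 and -0.38) and VAT (2.20 and -1.23) lie at the upper right, and the other 5 tissues lie below -1.5 on the vertical axis.

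The transcription factors of the accessory loops were examined next. All 9 of Npas2, Rora, Rorb, Nfil3, Tef, Hlf, Bhlhe40, Bhlhe41 and Ciart had a 4-fold range, with a median log2 range of 3.64 against the 2.99 of all genes, and 7 of them were lowest in SCAT or VAT. The shares of all genes were 70.0% and 33.6%. The count with a 4-fold range was 8 with loci on the annotated strand only. It was 7 with a pseudocount of 1 (51.0% of all genes) and 7 without SCAT and VAT (60.7%). Rorb, a receptor that activates through the RORE and is known from brain and retina, was the only one of them enriched in a tissue, at 12.2 FPKM in cortex and at most 0.387 elsewhere, from a locus opposite to the gene. On the annotated strand Rorb had 3.09 FPKM in cortex. Hlf was 25.9-fold higher in kidney than in SCAT (6.74 and 0.260 FPKM), and Ciart was at 0.313 FPKM in SCAT and 0.221 in VAT, where Dbp was low too.

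Of 8 genes whose products modify clock proteins, 5 had a 4-fold range (3 without SCAT and VAT), the median log2 range was 2.15, against 2.28 for the members, and 6 were lowest in SCAT. The shares of all genes were 70.0% and 21.8%. The kinase genes Csnk1d, Csnk1a1 and Gsk3b were the 3 below the limit. Csnk1e, another casein kinase gene, ranged from 2.26 FPKM in liver to 16.2 in muscle. Fbxl21, which encodes an F-box protein of ubiquitin ligases, was highest in liver (1.98 FPKM) and had 0.0848 FPKM in muscle. Usp2 was the only one of the 8 enriched in a tissue, with 64.0 FPKM in muscle against 12.2 in kidney, the next tissue, and 0.911 in SCAT.

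Correlations over the tissues were computed for each pair of members. Among the 15 pairs of dusk genes the median Pearson r of log2(FPKM + 0.1) was 0.82, from 0.26 for Per1 with Per2 to 0.98 for Per3 with Nr1d2, over 7 tissues that share their libraries. Arntl and the 6 dusk genes had a median r of 0.32, from 0.05 with Per2 to 0.91 with Per1. Per1 was thus the dusk gene most like Arntl. The 2 activators were not alike, with an r of -0.24 between Arntl and Clock, and Cry1 was closer to Arntl (0.88) than to any dusk gene. Pearson r of Arntl was above 0 with all 6 dusk genes, while Spearman rho was -0.29 with Dbp and -0.25 with Per2. Without the muscle library the median r of Arntl with the dusk genes was -0.15, and with size factors it was 0.02, whereas that of the dusk genes among themselves was 0.89 and 0.67. Without SCAT and VAT the gap was small, with a median r of 0.50 for Arntl with the dusk genes and 0.64 among the dusk genes. Over all pairs of protein-coding genes that reached 1 FPKM in a tissue and had a value in all 7, the median r was 0.03, and the middle 50% of pairs lay between -0.31 and 0.41.

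**Figure D5:**
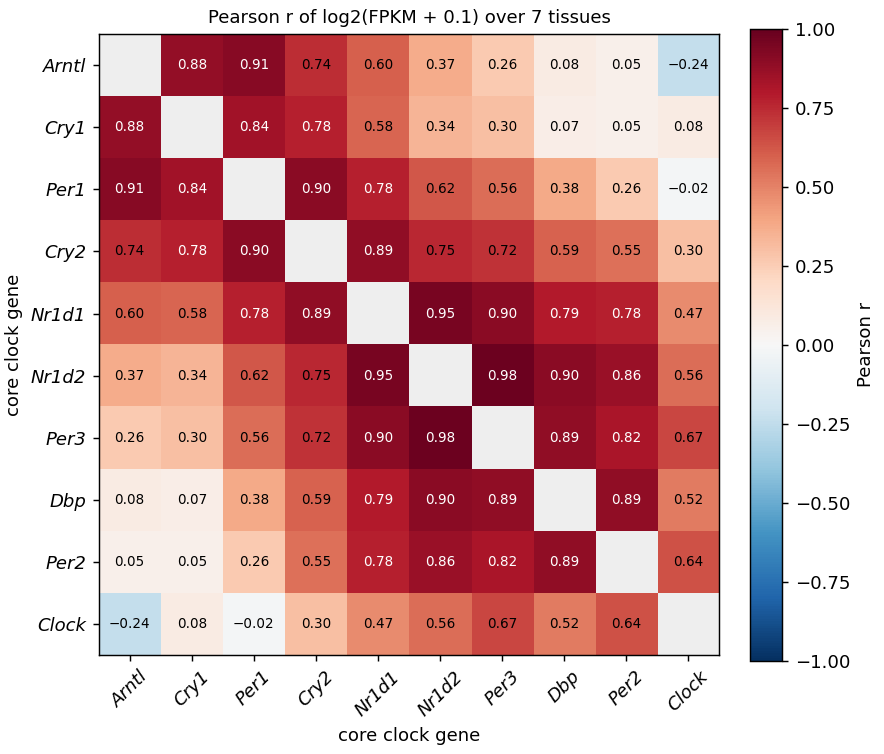
Pearson r of log2(FPKM + 0.1) over the 7 tissues for each pair of core clock genes, red for positive and blue for negative. Nr1d1, Nr1d2, Per3, Dbp and Per2 form a block with r of 0.78 to 0.98, Arntl, Cry1 and Per1 another with 0.84 to 0.91, and Arntl with Clock is at -0.24. The blocks are not separate: Per1 with Nr1d1 is at 0.78, and Cry2 is at 0.90 with Per1, 0.89 with Nr1d1 and 0.55 with Per2.

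For each member, the gene most like it outside the clock lists was sought among 7815 protein-coding genes that reached 1 FPKM in every tissue. Zfp451 was closest to Arntl (r = 0.990), Miga2 to Clock (0.992), Mef2a to Per1 (0.983), Lmbrd1 to Per2 (0.991), Psmb1 to Per3 (0.993), Itsn1 to Cry1 (0.974), Ddx19a to Cry2 (0.971), Vps37a to Nr1d1 (0.992), Hsp90ab1 to Nr1d2 (0.999) and Huwe1 to Dbp (0.987). With 7 points and this many candidates, such values are a description of these libraries. Hsp90ab1 had 57.3 FPKM in SCAT, 70.5 in VAT and 371 in muscle, the same lowest and highest tissues as Nr1d2.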

How the data were processed

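The authors trimmed reads with flexbar, removed rRNA reads with Bowtie2 2.2.9, aligned to GRCm38 with STAR 2.6.0c and compared tissues with cufflinks 2.2.1 and cuffdiff. The libraries are described as strand-specific, but whether counting used strand is not given in the sources used here. The authors deposited FPKM for 94339 loci in 21 comparisons, without counts, so depth and precision are unknown. Their log2 fold changes, test statistics, p-values and q-values were not used. A name with several loci was given its locus with the highest maximum FPKM, loci with status FAIL were dropped, and zeros with status LOWDATA were treated as missing. Of the names, 91.9% matched the annotation. Levels were compared as log2(FPKM + 0.1), which understates differences of low genes. With 1 library per tissue no test was possible. The rules were tested on simulated data. The members and gene lists, with all members, enriched list genes, markers and the most similar gene per member as those named, were chosen with earlier results of these data known, and list genes that are neither were named after their values were seen. Alternatives covered pseudocount, scaling, loci, gene groups, folds and single tissues. Python 3.11.15 was used with pandas 2.3.3, NumPy 2.4.6 and matplotlib 3.10.9, and coordinates count from 1. Acta1, a muscle marker, was not analysed here, and 3 genes of the lists were left out of their counts and sums and are not reported here.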

Additional observations from a re-analysis of the deposited data

How the results depend on the processing

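No paired analysis was possible because each of the 7 tissues was sequenced as 1 library. Depth is unknown, so the precision of low values such as Per2 and Per3 in SCAT cannot be given. Keeping loci with status FAIL could not change a member, since none has such a locus. Of the 112 other recomputed values of the dawn-dusk index and its range, 108 moved by less than 1.5-fold. This limit is wide for values near the mean of the 7 tissues, and many alternatives changed only 1 gene or the pseudocount. BAT at -0.58 with Arntl alone and 0.58 with Clock alone counted as unmoved, and so did cortex at 0.49 and -0.24. Relative to the mean of the 7 tissues, muscle was at 0.42 with Arntl alone as the dawn gene and at -1.10 with Clock alone (chosen after seeing the data). The range was 2.46 with Arntl alone and 2.47 with Dbp and Nr1d1 as the dusk group. With Clock alone the range was 1.81, now between SCAT and muscle, and SCAT and liver were 1.17 apart. The number of members with a 4-fold range was 3 with size factors (65.7% of all genes), 3 with a pseudocount of 1 (51.0%) and 4 without muscle (63.5%). A 2-fold rule called 1 member enriched (Per1 in muscle), against 38.3% of all genes. The alternatives that follow were chosen after seeing the data. Without SCAT and VAT, 4 members had a 4-fold range (60.7% of all genes). With size factors, 1 member was 4-fold lower in SCAT than in liver (10.1% of all genes) and 0 than in muscle (8.76%). Of the modifier genes, 2 had a 4-fold range with a pseudocount of 1 (51.0% of all genes) and 3 without SCAT and VAT (60.7%), and 8 had a 2-fold range (94.3%). Without Npas2, the second index relative to its mean was 0.94 in liver, -1.34 in kidney, -0.11 in VAT, -1.49 in cortex, 1.06 in BAT and 0.03 in muscle. The median r of Arntl with the dusk genes was -0.15 without muscle and 0.02 with size factors, and the r of the indices was 0.37 without SCAT and VAT. The causes were not tested.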

Other observations

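By the order of loci in the table, Clock, Per1, Per2 and Cry1 each have further loci on the strand opposite to the gene. An antisense transcript of Per2 is known in mouse. The locus opposite to Per2 had 1.55 FPKM in liver, 0.597 in kidney, 0.720 in muscle, 0.650 in cortex, 0.669 in BAT, 0.442 in VAT and 0.309 in SCAT, 22.4% to 49.3% of the FPKM of Per2 itself, with liver highest and SCAT lowest as for Per2. The locus opposite to Per1 had 49.5% to 83.4% of the FPKM of Per1, with 2.88 FPKM in muscle. For Clock the share was 7.53% to 14.2%, and each of the 4 loci opposite to Cry1 had between 8.45% and 69.8% of Cry1. The paper describes its libraries as strand-specific. Whether these reads were counted by strand is not stated, so reads of a gene and of its opposite locus cannot be told apart.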
